A study of Homo sapiens with 6 samples.

Results

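The genes described here are KRTAP3-1, KRTAP2-3, KRTAP1-5 and KRTAP4-3, 4 keratin-associated protein (KRTAP) genes of a single cluster on human chromosome 17. They were read by 5 probe sets annotated to exactly 1 gene symbol, out of 49293 non-control probe sets and 18132 genes with such a probe set in all. The 4 genes were selected on their measured expression difference between the groups of these same arrays, so the values of that contrast are given for them as a description, without a test. The arrays carried 78 further KRTAP genes, read by 111 probe sets of 1 symbol, which serve as the background.

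RNA came from DLD1, an established human colorectal adenocarcinoma cell line, transfected, in the wording of the labels, with lentivirus expressing a short hairpin RNA (shRNA) directed at the kinase gene CDKL1, or with lentivirus expressing a control shRNA. Each group had 3 Affymetrix arrays, 1 per sample, and all 6 samples were of the same line, so both groups carried a lentivirus and differed in the hairpin. The labels give neither the hairpin sequences nor the time between transfection and harvest. Nothing in them says that the 3 samples of a group were grown or transfected independently, and the p-values below therefore measure only how much these samples vary, which may be technical variation. Values are log2 expression after robust multi-array averaging (RMA), so a difference of 1 is a doubling.

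Keratin-associated proteins are small, cysteine-rich proteins that fill the space between the keratin filaments of the hair shaft and cross-link them through disulfide bonds. They are normally made in the hair cortex and cuticle during the last steps of hair formation, after the hair keratins. Their genes have a single exon and lie in clusters on a few chromosomes, and the chromosome 17 cluster sits inside the type I keratin gene cluster. Families 1, 2 and 3 belong to the high-sulfur proteins and family 4 to the ultra-high-sulfur proteins. Colonic epithelium is not a tissue known for making them.

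The promoter windows of the 4 genes are shown because the genes share a feature there that played no part in their selection. Each window runs 5′ to 3′ from 250 bases before the gene start to 50 bases after it, from RefSeq on build GRCh38.p14, and all 4 genes had a window in that table. Capitals mark TATATAA, which matches the core promoter element known as the TATA box.
KRTAP3-1 (chr17:41009079-41009378, minus strand): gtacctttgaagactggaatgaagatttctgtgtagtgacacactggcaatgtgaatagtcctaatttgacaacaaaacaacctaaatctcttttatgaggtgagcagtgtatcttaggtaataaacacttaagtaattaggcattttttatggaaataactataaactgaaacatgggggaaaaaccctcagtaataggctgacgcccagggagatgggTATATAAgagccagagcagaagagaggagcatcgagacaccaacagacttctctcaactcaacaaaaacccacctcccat
KRTAP2-3 (chr17:41060065-41060364, minus strand): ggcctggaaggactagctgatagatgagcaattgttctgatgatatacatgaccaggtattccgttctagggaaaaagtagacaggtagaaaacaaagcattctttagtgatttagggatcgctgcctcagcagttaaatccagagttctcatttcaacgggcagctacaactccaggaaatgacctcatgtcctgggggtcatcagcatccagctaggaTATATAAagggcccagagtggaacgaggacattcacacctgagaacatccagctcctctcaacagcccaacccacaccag
KRTAP1-5 (chr17:41027159-41027458, minus strand): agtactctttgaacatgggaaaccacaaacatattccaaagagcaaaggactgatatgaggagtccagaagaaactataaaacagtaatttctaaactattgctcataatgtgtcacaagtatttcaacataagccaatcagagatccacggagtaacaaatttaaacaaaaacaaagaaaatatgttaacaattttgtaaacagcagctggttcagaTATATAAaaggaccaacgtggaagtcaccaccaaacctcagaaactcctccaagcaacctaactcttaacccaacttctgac
KRTAP4-3 (chr17:41168172-41168471, minus strand): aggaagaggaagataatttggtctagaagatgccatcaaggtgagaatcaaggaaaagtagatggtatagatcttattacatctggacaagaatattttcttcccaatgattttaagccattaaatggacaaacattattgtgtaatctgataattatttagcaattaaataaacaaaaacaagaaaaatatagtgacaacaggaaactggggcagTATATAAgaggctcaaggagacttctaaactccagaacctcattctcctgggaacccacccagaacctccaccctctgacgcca

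TATATAA occurred once on the gene's own strand in all 4 windows. Its first base lay 30 bases before the start of KRTAP3-1 and of KRTAP2-3, 32 bases before that of KRTAP1-5 and 34 bases before that of KRTAP4-3. Searched on both strands, these letters were present in 2.57% of all 34943 promoter windows of this length, in 23.4% of the 77 other KRTAP windows and in 5 of the 29 other windows of the same cluster. Restricted to the gene's strand and to a distance of 20 to 40 bases before the start, they were found in 0.598% of all windows, in 11 of the 77 other KRTAP windows (14.3%) and in 2 of the 29 others of the cluster. Those 2 belonged to KRTAP3-2, whose probe set differed by 0.03 between the groups on the log2 scale, and KRTAP4-5, whose probe set differed by 0.00. The distance limit left out KRTAP2-1, KRTAP2-2 and KRTAP2-4, relatives of KRTAP2-3. They carried the letters on their own strand at 45, 75 and 60 bases before the start. Their probe sets differed by 0.19, -0.11 and -0.21, against 0.18 for KRTAP4-3. The probe sets of KRTAP2-1, KRTAP2-2 and KRTAP2-4 averaged 5.31, 4.31 and 3.47 over all arrays. Those of KRTAP3-2 and KRTAP4-5 averaged 3.64 and 4.78. Probe sets at such levels may be too dim to show a change. Whether the letters go with a change was not tested. Only these exact letters were counted, and other forms of the TATA box were not searched. The letters and the distance limit may have been fitted to the 4 windows. The shares therefore do not measure how rare such an element is. These sequence matches are descriptions and were not tied to any binding measurement.

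Of 3 other motifs searched on both strands, CTTTGA, the core read by TCF and LEF1 factors, was found in 2 of the 4 windows, at 246 bases before the start of KRTAP3-1 and 244 bases before that of KRTAP1-5. It was present in 12.9% of all windows, 29.9% of the other KRTAP windows and 37.9% of the 29 others of the cluster. TGTTTAC, a forkhead motif, was found in 1 window, on the opposite strand of KRTAP1-5. It was present in 3.42% of all windows, 13% of the other KRTAP windows and 7 of the 29 others of the cluster (24.1%), so 1 of 4 is close to its share in the cluster. TGANTCA, an AP-1 motif, was found in 0 of the 4 windows, 7.72% of all windows and 13.8% of the others of the cluster. None of these motifs overlaps the TATA letters. By global alignment the windows were otherwise of mixed likeness to those of their relatives: KRTAP4-3 matched its closest relative in the cluster, KRTAP4-5, at 79.8% of aligned positions, whereas the highest identity was 64.3% for KRTAP1-5 (with KRTAP1-3), 61.4% for KRTAP2-3 (with KRTAP2-1) and 59.6% for KRTAP3-1 (with KRTAP3-3). Against all 32 other cluster windows the median identity was 53.5% to 54.6% for each of the 4 genes.

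As a check of the hairpin, the CDKL1 probe set, 11741692_a_at, averaged 4.17 ± 0.09 in CDKL1 shRNA arrays and 4.37 ± 0.18 in control shRNA arrays (SD, n = 3 each). Its log2 change of -0.19 missed the threshold (adjusted p = 0.241 in limma). Permuting the arrays exactly, two-sided, gave p = 0.3, where 0.1 is the smallest p that 3 against 3 arrays allow. The knockdown is therefore not shown by these arrays, and groups are named by their labels. Its absence is not shown either. Background control probe sets of 15 and 16 G or C bases averaged 4.21 and 4.92, so the CDKL1 probe set may be too dim to show a loss. Over all probe sets, 6221 of 49293 (12.6%) passed a Benjamini-Hochberg adjusted p of 0.05 in limma, 7.38% higher and 5.24% lower in CDKL1 shRNA arrays. Leaving out 1 array gave 3013 to 4581 calls, at least 1.5 times fewer without any array but control shRNA replicate 1. The difference between 3′ and 5′ ACTB control probe sets, a sign of RNA quality, was 1.60 ± 0.11 in CDKL1 shRNA arrays and 1.40 ± 0.01 in control shRNA arrays (SD, n = 3 each, exact two-sided permutation p = 0.1). The same difference for GAPDH was 0.275 ± 0.026 in CDKL1 shRNA arrays and 0.203 ± 0.018 in control shRNA arrays, also without overlap (SD, n = 3 each, exact two-sided permutation p = 0.1). When the ACTB value entered the fit as covariate, the changes of the 5 KRTAP probe sets kept their sign, with values given below where they moved.

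The markers of colorectal epithelium were mixed in level. EPCAM, an epithelial adhesion gene (probe set 11716887_a_at), KRT19 and the intestinal factor gene CDX2 were at 13.5, 13.5 and 10.7 in CDKL1 shRNA arrays, and at 13.5, 13.5 and 10.7 in control shRNA arrays. Others were dim: the carcinoembryonic antigen gene CEACAM5 had probe set means of 3.35 to 4.13 in CDKL1 shRNA arrays and 3.32 to 4.07 in control shRNA arrays, and those of the intestinal factor gene CDX1 were 4.30 and 6.16 in CDKL1 shRNA arrays and 4.37 and 6.23 in control shRNA arrays. Linear levels of the 15 colorectal genes, each by its brightest probe set, were summed per array and the total put on the log2 scale. This total was 16.05 to 16.08 in CDKL1 shRNA arrays and 16.11 to 16.13 in control shRNA arrays, without overlap. The brightest genes weigh most in it. Of the 37 probe sets of these genes 8 passed (5 higher and 3 lower, 21.6% against 12.6% of all). The same total for the 9 keratinocyte markers was 11.05 to 11.07 in CDKL1 shRNA arrays and 10.62 to 10.74 in control shRNA arrays. KRT10 alone, the brightest of them, averaged 10.69 in CDKL1 shRNA arrays and 10.22 in control shRNA arrays. The median log2 change over the probe sets of these markers was -0.06, so the higher total does not describe the markers as a set. Of their 13 probe sets 3 passed (23.1%, against 12.6% of all), with KRT10 and KRT15 higher and SBSN lower in CDKL1 shRNA arrays. The basal keratins KRT14, at 6.13 in CDKL1 shRNA arrays and 6.22 in control shRNA arrays, and KRT5 (11721258_a_at), at 5.70 in CDKL1 shRNA arrays and 5.94 in control shRNA arrays, did not pass. The part of these marker shifts in the KRTAP values was not tested. Background control probe sets had means from 2.74 to 10.7 depending on their G and C content. The sources used here do not give the G and C content of the gene probes, so whether a probe set near 5 lies above background cannot be told.

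KRTAP3-1, a high-sulfur family 3 gene, had the largest differences of the 4 genes in both of its probe sets. Probe set 11738301_at read 11.15, 11.03 and 11.10 in CDKL1 shRNA arrays, against 8.91, 8.66 and 8.77 in control shRNA arrays. Probe set 11738302_s_at read 10.82, 10.81 and 10.78 in CDKL1 shRNA arrays, against 8.15, 8.10 and 8.18 in control shRNA arrays. In both probe sets all 3 CDKL1 shRNA arrays lay more than 2 log2 units above every control array, and the control arrays were the more scattered. The means of 11738301_at were 11.09 ± 0.06 in CDKL1 shRNA arrays and 8.78 ± 0.13 in control shRNA arrays (SD, n = 3 each), a log2 change of 2.31 (SE 0.07) or 4.97-fold. For 11738302_s_at they were 10.80 ± 0.02 in CDKL1 shRNA arrays and 8.14 ± 0.04 in control shRNA arrays, a log2 change of 2.66 (SE 0.05) or 6.31-fold. Ordered by signed change from the highest, these probe sets ranked 3 and 1 of all 49293. The difference between the 2 estimates, 0.35, exceeded the SE of either. The suffix _s marks a probe set that can bind transcripts of related genes.

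KRTAP2-3, a high-sulfur family 2 gene, was read by the single probe set 11746283_s_at. It read 9.75, 9.84 and 9.77 in CDKL1 shRNA arrays, against 8.46, 8.68 and 8.45 in control shRNA arrays. The groups were separated by 1.06 between the lowest CDKL1 shRNA array and the highest control array, which was control replicate 2. The means were 9.79 ± 0.05 in CDKL1 shRNA arrays and 8.53 ± 0.13 in control shRNA arrays (SD, n = 3 each), a log2 change of 1.26 (SE 0.07) or 2.39-fold, rank 30 of all probe sets. Family 2 genes are close copies of each other, and in the RefSeq gene table the symbol KRTAP2-4 is both a gene of its own and an older name of KRTAP2-3. The value of this probe set may therefore include signal of other family members. The probe sets annotated to those other members did not show this difference. KRTAP2-1 differed by 0.19, KRTAP2-2 by -0.11 and KRTAP2-4 by -0.21 on the log2 scale, none past the threshold. In the same order they averaged 5.31, 4.31 and 3.47 over all arrays, against 9.16 for KRTAP2-3. Such dim probe sets may not show a change, so whether these relatives changed cannot be told.

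KRTAP1-5, a high-sulfur family 1 gene, was read by the single probe set 11729095_at. It read 5.66, 5.83 and 5.61 in CDKL1 shRNA arrays, against 4.85, 5.12 and 5.23 in control shRNA arrays. The groups did not overlap, with a gap of 0.38, and control replicate 1 was the lowest array. The means were 5.70 ± 0.11 in CDKL1 shRNA arrays and 5.07 ± 0.20 in control shRNA arrays (SD, n = 3 each), a log2 change of 0.63 (SE 0.10) or 1.55-fold, rank 290. The change was 0.47 with the ACTB covariate and 0.52 without control shRNA replicate 1.

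KRTAP4-3, the ultra-high-sulfur gene of the 4, was read by probe set 11738795_at and had by far the smallest difference. It read 5.21, 5.20 and 5.16 in CDKL1 shRNA arrays, against 5.03, 4.97 and 5.02 in control shRNA arrays. The groups did not overlap, but the gap between them was only 0.14. The means were 5.19 ± 0.03 in CDKL1 shRNA arrays and 5.01 ± 0.03 in control shRNA arrays (SD, n = 3 each), a log2 change of 0.18 (SE 0.05) or 1.14-fold. This change ranked 5830 of all probe sets, and 11.8% of all probe sets had a change at least as high. Of the other KRTAP probe sets, 7 of 111 had a change at least as high and 12 of 111 one at least as large in either direction.

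Across the 4 genes the log2 change thus ran from 0.18 to 2.66, and all 5 probe sets had every CDKL1 shRNA array above every control array, as did 17.3% of all probe sets (15.6% had them all below, so that groups did not overlap in 32.9%). This count describes how the genes were chosen. With the ACTB covariate the change was 2.42 for KRTAP3-1 (11738301_at) and 1.15 for KRTAP2-3.

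**Figure D1:**
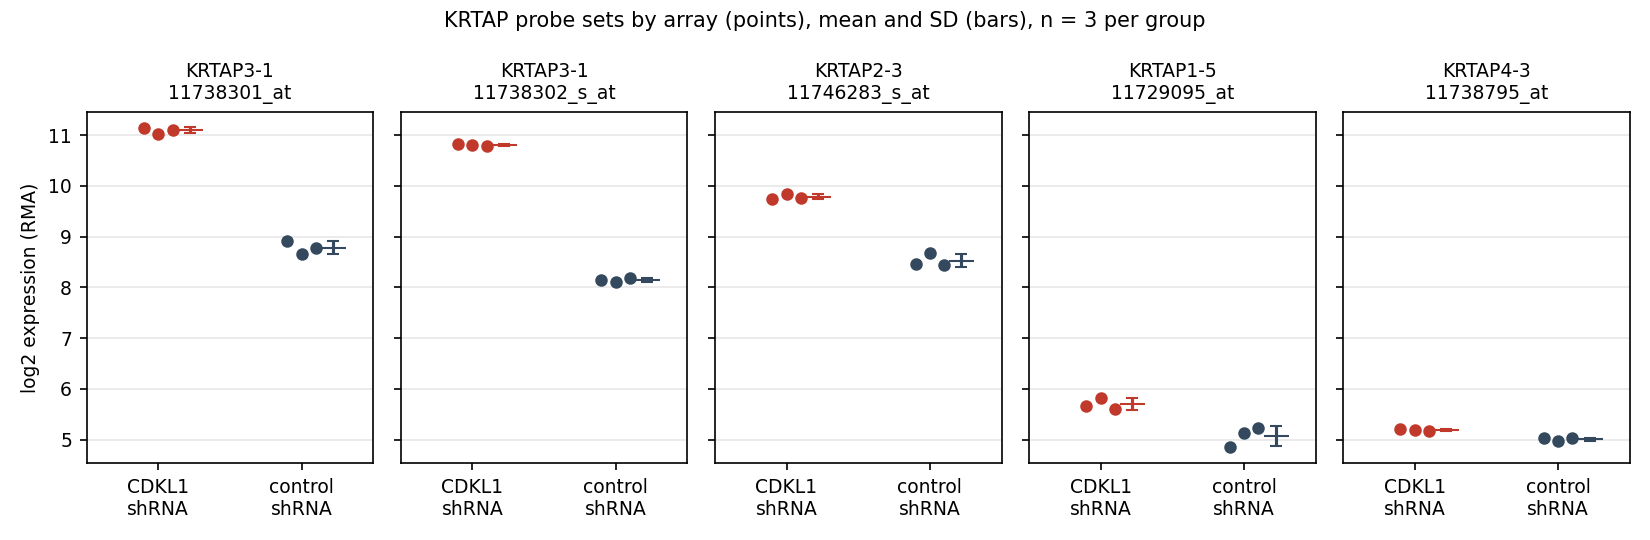
Log2 expression (RMA, y axis) of the 5 probe sets of KRTAP3-1, KRTAP2-3, KRTAP1-5 and KRTAP4-3, with points for the 3 CDKL1 shRNA arrays (left, red) and the 3 control shRNA arrays (right, dark) and bars for mean and SD. The groups are separated by over 2 log2 units for KRTAP3-1 and by 0.14 for KRTAP4-3.

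The other KRTAP genes stayed near 0. Of their 111 probe sets 1 passed the threshold, higher in CDKL1 shRNA arrays, or 0.901% against 12.6% of all probe sets, and 9 had an unadjusted p under 0.05. Their median log2 change was -0.04, with quartiles of -0.10 and 0.03 and a range from -0.22 to 0.47, while the median over all probe sets was -0.01. Because the 4 genes above were taken out of this family for their high values, the low share among those remaining is in part a product of that choice. The 111 probe sets were also dim, with median group means of 5.51 in CDKL1 shRNA arrays and 5.47 in control shRNA arrays. Over all probe sets these were 6.66 and 6.67, so the 12.6% is not matched for level. Split by locus, the 24 probe sets of 21 other genes in the same cluster had a median of 0.03 and 1 call, and the 87 probe sets of 57 KRTAP genes at other loci had a median of -0.05 and 0 calls in limma, with 3 at an unadjusted p under 0.05. With a variance trend and robust moderation in limma, 2 of the 111 probe sets passed.

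The called probe set, 11753499_a_at, reads KRTAP1-1, a high-sulfur family 1 gene. It read 4.28, 4.35 and 4.36 in CDKL1 shRNA arrays, against 3.92 to 4.10 in the 3 control shRNA arrays, a log2 change of 0.32 (SE 0.06, limma, adjusted p = 0.0156). The groups did not overlap. The call was lost without CDKL1 shRNA replicate 2, CDKL1 shRNA replicate 3 or control shRNA replicate 3 (adjusted p = 0.0224 to 0.0641 over the 6 fits with 1 array left out, limma) and with the ACTB covariate (adjusted p = 0.311, limma). A second KRTAP1-1 probe set, 11738405_a_at, differed by 0.47 (SE 0.14) and did not pass (limma, adjusted p = 0.071), and the third, 11738406_x_at, differed by 0.07.

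Outside KRTAP1-1, the largest positive differences among the other KRTAP probe sets, singled out after their values were seen, were 0.32 for KRTAP4-1 (unadjusted p = 0.0602, limma), 0.19 for KRTAP26-1, 0.19 for one of the 2 KRTAP3-3 probe sets, 0.19 for KRTAP2-1 and 0.18 for KRTAP27-1, and none of these passed. Of the 7 other KRTAP probe sets with a change at least as high as that of KRTAP4-3, 5 belonged to genes of the same cluster. The cluster held 24 of the 111 other KRTAP probe sets. KRTAP1-1 entered this count with more than 1 probe set, and its called probe set was the only one of the 7 that passed. Whether the cluster was over-represented was not tested. The closest relatives of KRTAP3-1 showed no comparable change: KRTAP3-2 differed by 0.03, the KRTAP3-3 probe sets by 0.06 and 0.19, and the 2 probe sets annotated to both KRTAP3-2 and KRTAP3-3 by 0.07 and 0.04. In the same order these averaged 3.64, 5.16, 3.54, 5.74 and 5.59 over the 6 arrays, against 9.94 and 9.47 for the KRTAP3-1 probe sets. Probe sets at such levels may be too dim to show a change.

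**Figure D2:**
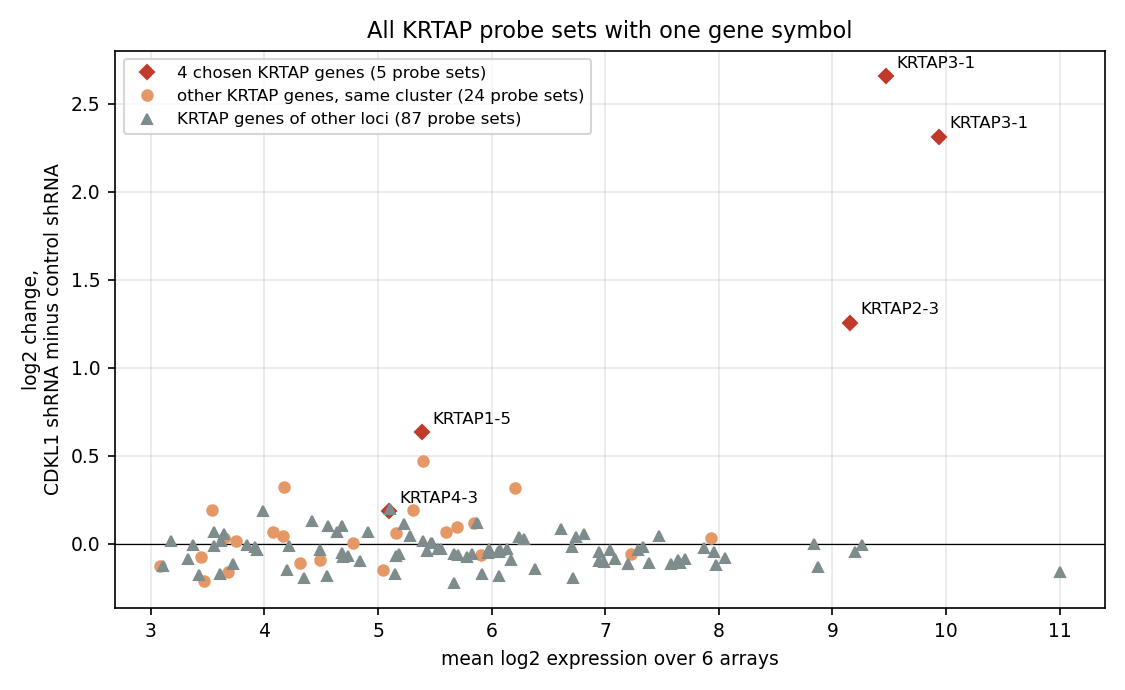
Log2 change between CDKL1 shRNA and control shRNA arrays (y axis) against the mean log2 expression over 6 arrays (x axis) for every KRTAP probe set of 1 symbol. Red diamonds are the 5 probe sets of the 4 chosen genes, orange circles the 24 other probe sets of the cluster and grey triangles the 87 of other loci. KRTAP3-1, KRTAP2-3 and KRTAP1-5 lie above all others, and KRTAP4-3 lies among them.

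Position along the chromosome was read from the RefSeq gene order, because the sources used here name no build for the array. Between SMARCE1 and JUP, which flank the type I keratin and KRTAP genes, 94 genes are listed and 56 of them had a probe set of 1 symbol. KRTAP3-1 and KRTAP1-5 are direct neighbours in that order. KRTAP2-3 lies beyond them, with KRTAP1-4, KRTAP1-3, KRTAP1-1, KRTAP2-1 and KRTAP2-2 in between, and KRTAP4-3 lies farther on among the family 4 genes. All 4 are on the minus strand. The measured genes between KRTAP1-5 and KRTAP2-3 differed by -0.13 (KRTAP1-3) to 0.47 (KRTAP1-1), all smaller than the 0.63 of KRTAP1-5 and the 1.26 of KRTAP2-3.

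Of the 71 probe sets of the 52 other measured genes of this stretch, 8 passed (11.3%), all 8 higher in CDKL1 shRNA arrays. Over all probe sets 12.6% passed in either direction and 7.38% passed as higher. Whether the stretch differed from that share was not tested. The median log2 change of the 71 probe sets was 0.00. Fits without 1 array gave 3 to 6 calls: among them 4 and 3 when CDKL1 shRNA replicates 2 and 3 were dropped in turn, and 5 and 4 for control shRNA replicates 2 and 3. With the ACTB covariate 0 passed, against 243 of all probe sets. Besides KRTAP1-1 the calls fell on keratin genes and on EIF1, a translation start factor gene, of which 3 of 4 probe sets rose, by 0.19 to 0.23, and lost the call in every fit with 1 array left out. The fourth EIF1 probe set differed by 0.26, without overlap, and missed the threshold (limma, adjusted p = 0.0582).

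Among the keratins of the stretch, KRT20, the intermediate filament of intestinal epithelium, rose to 10.82 ± 0.03 in CDKL1 shRNA arrays against 10.30 ± 0.05 in control shRNA arrays (SD, n = 3 each), a log2 change of 0.52 (SE 0.05, limma, adjusted p = 0.00135). KRT10, a keratin of differentiating epidermis, rose by 0.47 (SE 0.07, limma, adjusted p = 0.00493), and 1 of 2 probe sets of its antisense RNA gene KRT10-AS1 rose by 0.43 (SE 0.05, limma, adjusted p = 0.00318). KRT15, a basal cell keratin, rose by 0.56 (SE 0.10, limma, adjusted p = 0.0125). Without CDKL1 shRNA replicate 3 its limma adjusted p was 0.0538, and its change was 0.49 to 0.68 over 12 alternatives. The abundant KRT19 differed by -0.01.

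**Figure D3:**
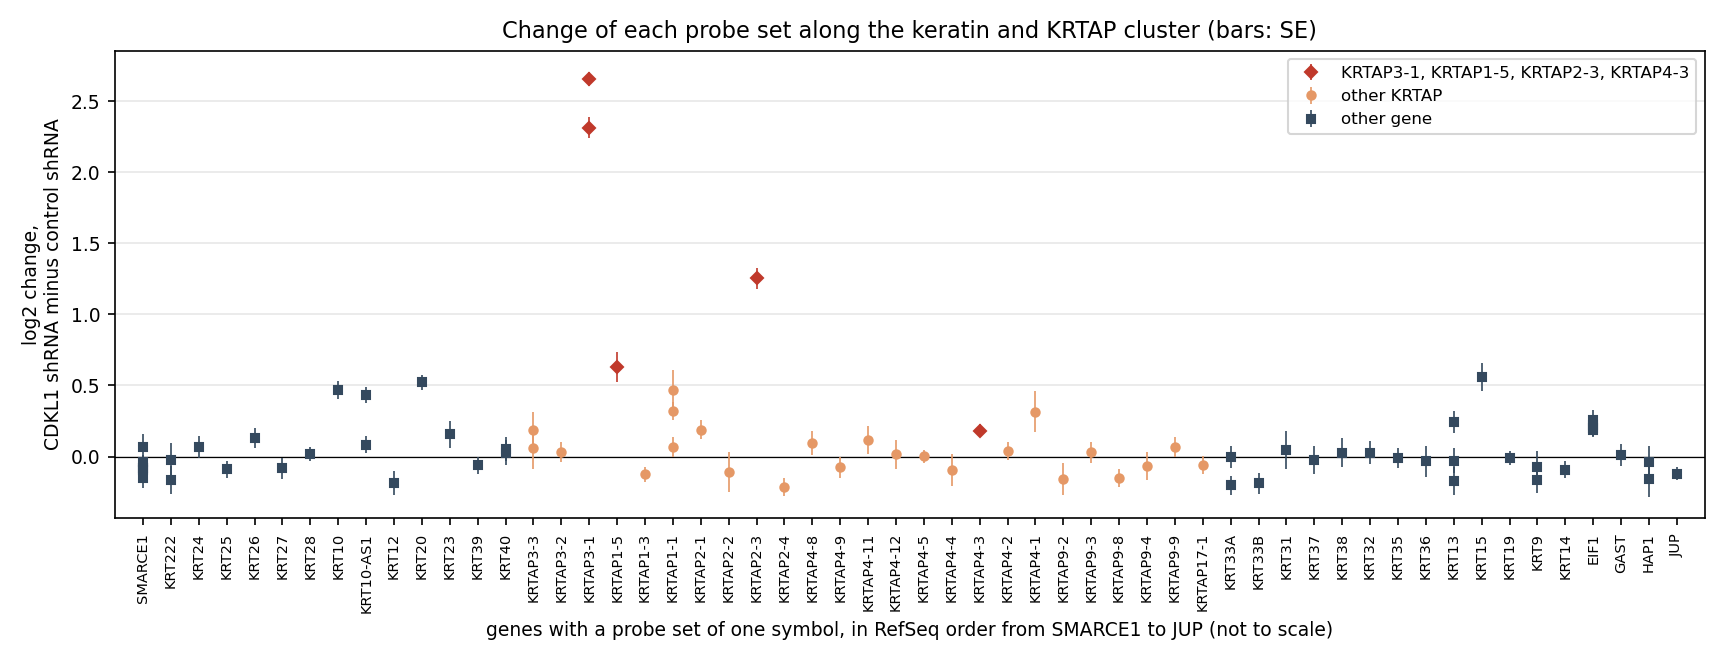
Log2 change between CDKL1 shRNA and control shRNA arrays (y axis, bars are SE) of every probe set of 1 symbol for the 56 measured genes from SMARCE1 to JUP in RefSeq order (x axis, not to scale). Red diamonds are the 4 chosen genes, orange circles the other KRTAP genes and dark squares all other genes. The differences of KRTAP3-1 and KRTAP2-3 stand above 1, while neighbouring KRTAP probe sets lie between -0.21 and 0.47.

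Hair keratins are the filament partners of these proteins in the hair shaft. Of the 17 hair keratin genes listed, 13 were measured by 17 probe sets, and 0 of these passed in limma, against 12.6% of all probe sets, with 2 at an unadjusted p under 0.05 (13318 of the 49293 over all) and 0 also with a variance trend and robust moderation. Their log2 changes ran from -0.20 to 0.10 with a median of -0.01. KRT31, the main type I hair keratin of the cortex, differed by 0.05, and KRT39 and KRT40, the nearest hair keratin genes to KRTAP3-1, differed by -0.06 and by 0.03 and 0.05. Of 54 probe sets of 39 genes of the epidermal differentiation complex, a separate cluster of cornified envelope genes, 0 passed in limma, again against 12.6%, 5 had an unadjusted p under 0.05 and 1 passed with trend and robust moderation. Their median was -0.06. Both lists were dim. Median group means in CDKL1 shRNA and control shRNA arrays were 5.75 and 5.76 for hair keratins, and 5.43 and 5.45 for the complex. Over all probe sets they were 6.66 and 6.67, so the 12.6% is not matched for level.

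Counted in either direction, hair follicle transcription factors and hair shaft proteins were called at about the share of all probe sets. Of 44 probe sets of 15 measured factor genes, 5 passed (11.4% against 12.6% of all), 2 higher and 3 lower, with a median log2 change of 0.00. The higher ones were 1 of 5 probe sets of PRDM1 and 1 of 9 probe sets of LEF1. PRDM1, a transcriptional repressor active in the follicle and sebaceous gland, rose by 0.30 in that probe set (SE 0.06, limma, adjusted p = 0.0157). LEF1, a Wnt-responsive factor, rose by 0.25 in its called probe set (limma, adjusted p = 0.0467). The lower ones were 1 of 2 probe sets of MSX2 (-0.25, limma, adjusted p = 0.0326), MSX1 (-0.21, limma, adjusted p = 0.0406) and FOXN1, the nude gene needed for hair shaft keratinisation (-0.26, limma, adjusted p = 0.0494). The FOXN1 call was lost in all 11 alternatives run, and the MSX1 call in all 6 fits with 1 array left out. The list's count changed with single arrays: 0 passed without CDKL1 shRNA replicate 1 or 3, and 1 without CDKL1 shRNA replicate 2, control shRNA replicate 2 or control shRNA replicate 3. Of 24 probe sets of 15 hair shaft protein and enzyme genes, 3 passed, all lower (12.5%, against 5.24% of all probe sets called lower). They were 2 of 3 probe sets of PADI1, a peptidylarginine deiminase gene (-0.50 and -0.42, limma, adjusted p = 0.0322 and adjusted p = 0.019), and SELENBP1 (-0.44, SE 0.06, limma, adjusted p = 0.00338). Without CDKL1 shRNA replicate 1, CDKL1 shRNA replicate 3 or control shRNA replicate 2, 1 of these 3 passed. With the ACTB covariate 0 of the 5 factor calls and 0 of the 3 hair shaft calls remained (SELENBP1 limma adjusted p = 0.131, PADI1 0.183 and 0.145).

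Likeness of profile was measured over the 6 arrays as the root mean square log2 difference between probe sets, each centred on its own mean, so it reflects the size of the group difference as well as the spread within groups. The genes most like KRTAP3-1 were the gonadal transcription factor gene DMRT1 (0.13), the scaffold protein gene AHNAK2 (0.21) and the trypsin inhibitor gene SPINK1 (0.25), against a root mean square of 1.16 for the centred KRTAP3-1 profile itself. Those most like KRTAP2-3 were the carboxypeptidase gene CPA4 (0.07), the endoplasmic reticulum selenoprotein gene SELENOM (0.08) and the cargo receptor gene LMAN1 (0.09), whose log2 changes were 1.23, 1.25 and 1.16. Those most like KRTAP1-5 were the zinc transporter gene SLC30A5 (0.06), the butyrophilin gene BTN3A3 (0.06) and the desmosomal cadherin gene DSC2 (0.07), with changes of 0.61, 0.58 and 0.62. For KRTAP4-3 they were METTL23, HDLBP and EHD1, at 0.01 each, with changes of 0.20, 0.17 and 0.18. The centred profiles of KRTAP2-3, KRTAP1-5 and KRTAP4-3 had root mean squares of only 0.63, 0.34 and 0.09. The distances are therefore not comparable between the 4 genes. None of the 12 genes was a keratin or a KRTAP gene.

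**Figure D4:**
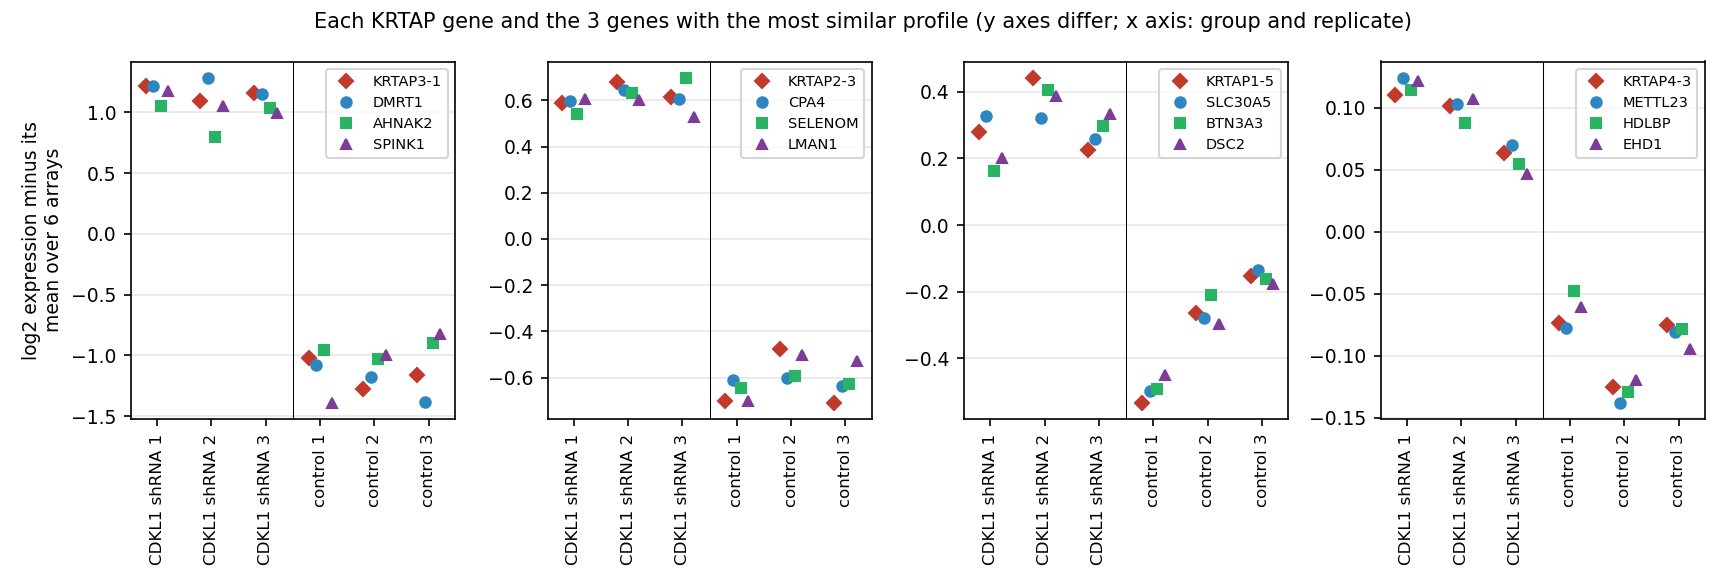
Log2 expression minus its mean over the 6 arrays (y axis, scale differs between panels) for KRTAP3-1, KRTAP2-3, KRTAP1-5 and KRTAP4-3 (red diamonds) and the 3 genes with the most similar profile to each, by array (x axis, CDKL1 shRNA replicates left of control replicates). In the KRTAP1-5 panel control replicate 1 lies below the other 2 control arrays for all 4 genes. The 3 genes were chosen for likeness over these same arrays, so this shared feature follows from the choice.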

How the data were processed

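The values used are log2 expression from the deposited table of 49395 probe sets by 6 arrays, which the authors made with RMA, per the submitters' processing notes, with version and settings not given in the sources used here. Biotin-labelled cRNA was made from 6 µg of total RNA, per the labels' protocols. The 102 control probe sets were left out of the tests. Gene names came from GEO's platform annotation: 44988 had 1 symbol, 1832 several and 2473 none, and 0 sample columns were unused. RMA assumes that most genes do not change and compresses changes of dim probe sets.

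The members, lists and rule for named genes were chosen with earlier results of these data known. Group was the only term of a limma 3.58.1 fit (R 4.3.3, lmFit and eBayes, two-sided) over 49293 probe sets, with Benjamini-Hochberg adjustment and a threshold of 0.05. The rule named the 4 members, up to 6 called genes of each list by smallest adjusted p, the 3 nearest profiles of each member, and CDKL1. The fit was tested on simulated data with normal noise, in which 50 probe sets were changed at each size. It called 30% of those changed 1.3-fold, 72% at 1.5-fold, 98% at 2-fold and 100% at 3-fold. Of its calls 5.66% were false. Far fewer probe sets were changed there than were called here, so these shares need not hold for the real arrays. Deviations from group means of arrays with the same replicate number correlated at -0.0645, -0.115 and 0.0549, so the numbers were not taken as pairs. Motifs and alignments (biopython 1.88, match 1, mismatch -1, gap opening -2, extension -0.5) used RefSeq promoters of GRCh38.p14. Alternatives were a replicate block, leaving out each array, further quantile normalisation, array median subtraction, filters on dim probe sets, an ACTB covariate, trend with robust moderation and 1 probe set per gene. Precision is limited by having 3 arrays a group.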

Additional observations from a re-analysis of the deposited data

How the results depend on the processing

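The log2 changes of the 5 probe sets of KRTAP3-1, KRTAP2-3, KRTAP1-5 and KRTAP4-3 kept their sign in all 12 alternatives run for each. With 1 array left out they ran from 2.25 to 2.38 and from 2.63 to 2.68 for the KRTAP3-1 probe sets, 1.22 to 1.33 for KRTAP2-3, 0.52 to 0.71 for KRTAP1-5 and 0.17 to 0.20 for KRTAP4-3. The ACTB covariate moved KRTAP3-1 (11738301_at) to 2.42, KRTAP2-3 to 1.15 and KRTAP1-5 to 0.47, each by more than the pooled SD, and the cause was not tested. CDKL1 stayed negative, at -0.29 to -0.12, and did not pass in any of its 11 alternatives (adjusted p = 0.0674 to 0.547, limma).

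Counts of calls moved more. Of all probe sets, 6221 in the plain fit, 3254 passed with the replicate block, 1653 of 3427 above the brightest background control, 243 with the ACTB covariate, 9341 with trend and robust moderation, 3040 with 1 probe set per gene and 3013 to 4581 with 1 array left out. The replicate numbers were not shown to pair the arrays. For other KRTAP probe sets, 1 in the plain fit, the count was 2 with the replicate block, median subtraction or trend and robust moderation. It was 0 with the ACTB covariate, with the 1 probe set left above the brightest background control, and with the 69 above controls of 10 to 16 G or C bases, a filter chosen after seeing the data. It was 0 to 2 with 1 array left out: 0 without CDKL1 shRNA replicate 2 or 3 or control shRNA replicate 3, and 2 without CDKL1 shRNA replicate 1. For genes around the cluster, 8 in the plain fit, it was 5 of 6 above the brightest background control, 0 with the ACTB covariate and 3 to 6 with 1 array left out. For hair follicle factors, 5 in the plain fit, it was 1 with the replicate block, 2 after median subtraction, 2 of 3 above the brightest background control, 0 with the ACTB covariate, 11 with trend and robust moderation and 0 to 4 with 1 array left out. For hair shaft proteins, 3 in the plain fit, it was 0 with the ACTB covariate and 1 to 3 with 1 array left out. For the epidermal differentiation complex, 0 in the plain fit, it was 1 with trend and robust moderation and 0 to 1 with 1 array left out, 1 without CDKL1 shRNA replicate 2 or control shRNA replicate 2. Hair keratins had 0 calls in all 11 alternatives run. No member, hair keratin, hair shaft or epidermal differentiation probe set was left above the brightest background control, so that filter gave no value for them.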

Other observations

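Besides the probe sets of 1 symbol, 8 probe sets were annotated to a KRTAP gene together with another gene. Their log2 changes ran from -0.11 to 0.07, 0 passed in limma and 0 had an unadjusted p under 0.05. The probe sets of KRTAP6-1, a glycine- and tyrosine-rich hair protein gene at another locus, read 10.92 ± 0.09 in CDKL1 shRNA arrays and 11.08 ± 0.10 in control shRNA arrays (11715156_s_at), and 5.13 ± 0.03 in CDKL1 shRNA arrays and 5.19 ± 0.13 in control shRNA arrays (11759391_at; SD, n = 3 each), and neither passed.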
